A study of Mus musculus with 5 samples.

Results

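The box H/ACA snoRNA entries described here are the rows of the deposited count tables whose symbol is Snora followed by a digit, 39 of 46959 entries in each table. Box H/ACA small nucleolar RNAs (snoRNAs) are short non-coding RNAs that fold into a pair of hairpins, with a hinge motif called the H box between the hairpins and the motif ACA close to the 3′ end. Each binds the pseudouridine synthase dyskerin (Dkc1) with Gar1, Nhp2 and Nop10, and most guide the conversion of chosen uridines of ribosomal RNA to pseudouridine. In mammals nearly all are encoded in introns of other genes, often genes of ribosomal proteins, of translation factors or of non-coding RNAs, and are cut from the spliced intron, where the bound proteins protect them from exonucleases. A read in such an entry can therefore stem from the mature snoRNA, from a precursor or from unspliced host RNA, and gene counts do not tell these apart.

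The series compared D4M.3A cells, a C57BL/6 mouse melanoma line with mutant Braf, between cells labelled as having constitutive activation of MNK (caMNK, 3 libraries) and control cells with the retroviral vector pBABE (2 libraries). The protocol names the kinase as MNK1, which phosphorylates the cap-binding factor eIF4E. All cells were at passages 7 to 12, and both groups share the line's own mutations. Total RNA was prepared with a silica-column kit and sequenced after stranded total RNA library preparation, and the labels name no step that selects small RNAs. The submitters describe the libraries as biological replicates but not how separate their cultures were, so each p-value reflects the spread among these libraries only. Each group is a single cell line, and an effect of the kinase cannot be told apart from other differences of the 2 lines. In RNA of a culture, fewer cells that express a gene and less RNA per cell cannot be told apart either.

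Total counts were 27827199, 48794336 and 36392842 in caMNK and 42730166 and 32963884 in pBABE. Mknk1, which encodes MNK1, measured 167, 155 and 168 CPM (counts scaled to the TMM-scaled library total) in caMNK, against 15.2 and 16.7 CPM in pBABE (log2 fold change 3.36, SE 0.104, edgeR adjusted p = 4.81e-06). Among 8 pigment cell markers, Dct and Tyrp1 had no count, Tyr had 4 counts in all 5 libraries together, and Mlana and Sox10 had at most 2 counts in any library. The other 3 were tested and did not pass: Mitf lay between 4.35 and 6.48 CPM, S100b between 2.32 and 3.14 CPM and Pmel between 0.217 and 0.432 CPM. Mitochondrial mRNAs vary with RNA quality and library preparation. Of the 10 tested, 6 rose in caMNK and 0 fell (median log2 fold change 0.67), against 4.42% and 3.52% of all entries tested. The part of these mitochondrial mRNAs in the results below was not tested.

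In GENCODE release M21 on mm10, the build of the files, 35 of the 39 entries lie inside a longer gene on the same strand, and these hosts are 31 distinct genes. Ribosomal protein genes hold 11 entries, non-coding host genes 7, translation factor genes 4 and other protein-coding genes 13. Of the other 4, Snora17, Snora43 and Snora57 have no host annotated on their strand in this release. The Snora26 row was given none for the reason below. Of the 35, 16 are intronic in every annotated transcript of the host and 19 touch an exon of at least 1 transcript. That transcript is protein-coding in 1 case, Snora7a in Rpl32, and no entry touches coding sequence. Lengths are 127 to 205 bases for the 38 entries whose deposited length equals the annotated one. The exception is the Snora26 row, listed with 2347 bases where the annotated snoRNA has 121. Its length equals the annotated span of Dancr (chr5:74093060-74095406), the non-coding gene that holds Snora26, and its counts were within 1 of those of the Dancr row in every library. The Snora26 row is therefore read here as a row for the Dancr gene body, so its value is not one of the snoRNA alone.

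The sequences below are those of the entries on which the results turn: the near-identical Snora73 pair, the entries with the lowest adjusted p-values apart from them (the Snora26 row left out) and the most abundant entry. They are the GENCODE M21 transcripts, written 5′ to 3′, with T for U. Capitals mark the match to the H box pattern ANANNA nearest to the middle and the ACA that lies 3 bases from the end. Snora73a (chr4:132352775-132352979, minus strand) and Snora73b (chr4:132352322-132352526, minus strand), also called E1 or U17, take part in cleavage of the ribosomal RNA precursor. Snora24 (chr3:123507937-123508066, minus strand) guides pseudouridylation of the small-subunit ribosomal RNA in human cells. The others are Snora31 (chr14:75847905-75848034, plus strand), Snora57 (chr19:8888538-8888685, minus strand), Snora33 (chr10:23785347-23785475, minus strand) and Snora15 (chr5:129794546-129794676, plus strand).
Snora73a: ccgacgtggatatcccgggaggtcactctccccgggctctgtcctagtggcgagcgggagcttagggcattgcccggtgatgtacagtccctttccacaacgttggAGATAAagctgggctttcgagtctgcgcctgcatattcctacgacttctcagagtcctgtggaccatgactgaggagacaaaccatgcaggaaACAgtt
Snora73b: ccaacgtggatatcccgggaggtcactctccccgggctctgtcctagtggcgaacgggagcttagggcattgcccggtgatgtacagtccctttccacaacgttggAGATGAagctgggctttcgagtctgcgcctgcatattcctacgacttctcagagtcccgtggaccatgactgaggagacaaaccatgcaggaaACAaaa
Snora24: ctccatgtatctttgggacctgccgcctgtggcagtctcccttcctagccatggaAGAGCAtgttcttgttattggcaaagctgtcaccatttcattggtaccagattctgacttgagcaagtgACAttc
Snora31: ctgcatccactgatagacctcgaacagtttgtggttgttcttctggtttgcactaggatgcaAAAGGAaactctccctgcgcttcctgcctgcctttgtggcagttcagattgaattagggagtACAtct
Snora57: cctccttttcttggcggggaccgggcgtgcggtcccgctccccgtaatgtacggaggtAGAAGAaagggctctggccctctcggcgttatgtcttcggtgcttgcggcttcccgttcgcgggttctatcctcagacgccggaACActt
Snora33: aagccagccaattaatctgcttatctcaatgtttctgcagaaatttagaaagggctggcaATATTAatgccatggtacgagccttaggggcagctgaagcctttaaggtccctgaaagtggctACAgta
Snora15: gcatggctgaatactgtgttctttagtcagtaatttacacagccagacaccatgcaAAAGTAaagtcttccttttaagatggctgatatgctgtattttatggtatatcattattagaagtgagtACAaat

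The ACA trinucleotide stood 3 bases from the end in 32 of the 39 annotated sequences (82.1%) and in 0 of 98 box C/D snoRNA sequences, the other main class of snoRNA. ANANNA, searched on the RNA strand between 35% and 65% of the length, was found in 36 of 39 (92.3%) and in 35 of 98 box C/D sequences (35.7%). Both marks stood together in 30 of 39 (76.9%) and in 0 of 98. The label of the entries thus fitted their sequences, as far as these letters go. Snora73a and Snora73b are 205 bases each and 96.6% identical. From Snora73a to Snora73b, counted from 1 at the 5′ end, the 7 differences are G3A, G54A, A111G, T164C, G203A, T204A and T205A. Reads that cover none of these positions match both copies, and how the counting treated such reads is not given, so the split between the copies is uncertain. The next most alike pair, Snora2b and Snora34, is 69.3% identical.

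Some of the Snora entries that could be tested were higher in caMNK, and none was lower. Of 39 entries, 31 had enough counts for the test, 10 rose, 0 fell and 21 did not pass an adjusted p of 0.05 (edgeR quasi-likelihood test, adjusted over all 17026 entries tested). Over all entries tested, 4.42% rose and 3.52% fell. At an unadjusted p under 0.05, 19 Snora entries were higher and 0 lower, against 13.8% and 12.1% of all entries tested. DESeq2 and limma-voom each called 9 Snora rises and 0 falls, with 840 and 659 rises over all entries. The log2 fold change was positive for 30 of the 31 and its median was 0.92, against 0.00 over all entries tested. Every caMNK library lay above both pBABE libraries for 22 of the 31 entries, against 22.3% of all entries tested, and below both for 1, Snora15. An entry that passed the count filter through its higher group had to differ, so these counts describe the tested entries and not all 39. Leaving out either pBABE library left 0 calls, with 13 entries (without replicate 1) and 19 (without replicate 2) at an unadjusted p under 0.05. Over all entries, these settings gave 11 and 37 rises. Without caMNK replicate 1, 5 entries remained called: Snora24, Snora31, Snora57, Snora73a and Snora73b. Over all entries, rises then numbered 175. Without caMNK replicate 2, 16 were called, and rises over all entries also went up, to 2325 against 753 with every library.

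**Figure D1:**
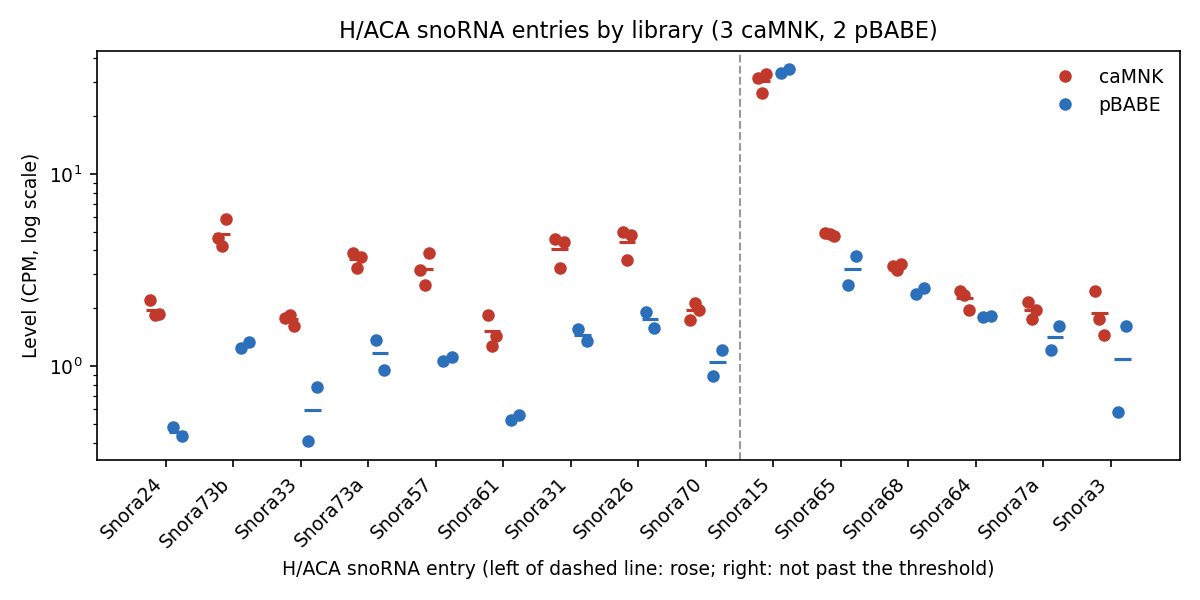
Level of each entry in CPM on a log axis, 1 point per library (3 caMNK, 2 pBABE) and a bar at each group mean. Left of the dashed line are 9 of the 10 entries that rose, with every caMNK point above both pBABE points; right of it are the 6 most abundant tested entries that did not pass the threshold, led by Snora15 near 30 CPM. Snora62 is left out because its level was 0 in pBABE replicate 2.

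The Snora73 pair lies in Snhg3, a non-coding gene known chiefly as the host of these RNAs. Snora73b measured 4.64, 4.20 and 5.84 CPM in caMNK, against 1.25 and 1.33 CPM in pBABE (log2 fold change 1.92, SE 0.213, edgeR adjusted p = 0.00472). For Snora73a the levels were 3.87, 3.23 and 3.70 CPM in caMNK, against 1.37 and 0.961 CPM in pBABE (log2 fold change 1.60, SE 0.216, adjusted p = 0.00748). The groups did not overlap for either copy, and the lowest caMNK library was more than double the highest pBABE library. Snhg3 itself rose, at 30.0, 25.4 and 28.4 CPM in caMNK against 13.1 and 13.6 CPM in pBABE (log2 fold change 1.06, SE 0.111, adjusted p = 0.0039), and its counts include those of both snoRNAs. Gm17300 overlaps the pair on the other strand and had nearly the counts of Snhg3, with a log2 fold change of 1.07. The counts carry no strand information between overlapping genes, so Gm17300 and Snhg3 cannot be told apart. Rcc1, which spans the pair on the same strand, differed by a log2 fold of 0.09 (adjusted p = 0.599).

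Snora24 lies in Snhg8, another non-coding host. Its levels were 2.20, 1.85 and 1.86 CPM in caMNK, against 0.48 and 0.434 CPM in pBABE, 4.25-fold higher (log2 fold change 2.09, SE 0.246, edgeR adjusted p = 0.0051). All caMNK libraries stood close together and well above pBABE. Snhg8 averaged 46.0 ± 9.29 CPM in caMNK and 32.1 ± 0.673 CPM in pBABE (SD, n = 3 and 2), a log2 fold change of 0.52 that did not pass (adjusted p = 0.0836).

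The third non-coding host, Snhg12, holds Snora16a, Snora44 and Snora61. Snora61 rose, with 1.85, 1.28 and 1.43 CPM in caMNK against 0.528 and 0.558 CPM in pBABE (log2 fold change 1.46, SE 0.276, edgeR adjusted p = 0.0185). Snora44, at a like fold change of 1.47 but with fewer counts, gave an adjusted p of 0.0564. Snora16a measured 0.906, 0.514 and 0.703 CPM in caMNK, against 0.288 and 0.589 CPM in pBABE, with overlapping groups (log2 fold change 0.69, adjusted p = 0.329). Snhg12 rose as a whole, to 22.1, 20.4 and 20.9 CPM in caMNK against 11.3 and 11.9 CPM in pBABE (log2 fold change 0.87, SE 0.104, adjusted p = 0.00524). The last entry with a non-coding host, Snora78 in Snhg9, had 16 counts in all and was not tested. Of the 6 tested entries in non-coding hosts, 4 rose, and the median log2 fold change was 1.54.

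Entries in ribosomal protein genes numbered 11, of which 10 were tested and 3 rose (median log2 fold change 0.75). Snora33, in the ribosomal protein gene Rps12, measured 1.78, 1.85 and 1.62 CPM in caMNK, against 0.408 and 0.775 CPM in pBABE (log2 fold change 1.60, SE 0.294, edgeR adjusted p = 0.0166). Snora70, in Rpl10, measured 1.74, 2.14 and 1.97 CPM in caMNK, against 0.888 and 1.21 CPM in pBABE (log2 fold change 0.92, SE 0.232, adjusted p = 0.0476). Neither entry's groups overlapped, but Snora70 was the called entry closest to the threshold. Its call was lost in DESeq2 (adjusted p = 0.0839), in limma-voom (0.0534) and without caMNK replicate 1 (0.107) or replicate 3 (0.0533), besides either pBABE library. Snora62 (also called E2), in Rpsa, was the sparsest entry tested, with 10, 13 and 12 counts in caMNK against 2 and 0 counts in pBABE. Its fitted log2 fold change of 3.36 (SE 0.745, adjusted p = 0.0322) rests on these few reads, and it passed the count filter through its caMNK counts. The ratio of summed counts, scaled by TMM-scaled library totals, was 11.3, with a 95% exact interval of 2.91 to 97.2 that covers counting error only. Snora65 in Rpl12, the second most abundant entry at 4.95, 4.90 and 4.76 CPM in caMNK against 2.64 and 3.75 CPM in pBABE, did not pass (log2 fold change 0.62, adjusted p = 0.0728). The other tested entries in ribosomal protein genes, Snora3, Snora7a, Snora52, Snora64, Snora68 and Snora69, had log2 fold changes of 0.32 to 1.06 and did not pass either.

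Other protein-coding hosts held 13 entries, 8 of them tested, and 1 rose (median log2 fold change 0.53). That was Snora31, in Tpt1, which encodes the translationally controlled tumour protein. It measured 4.60, 3.25 and 4.40 CPM in caMNK, against 1.56 and 1.36 CPM in pBABE (log2 fold change 1.46, SE 0.22, edgeR adjusted p = 0.00958), while Tpt1 differed by 0.27 (adjusted p = 0.166). Snora74a, with 42 counts in all, had the largest fold change among entries that did not pass (log2 1.91, SE 0.772, adjusted p = 0.164), and its groups overlapped. Of 4 entries in translation factor genes, 3 were tested and 0 rose. Snora41 in Eef1b2, which encodes an elongation factor subunit, came nearest, with 2.16, 1.09 and 1.35 CPM in caMNK against 0.648 and 0.434 CPM in pBABE (log2 fold change 1.44, adjusted p = 0.0507). Snora81 in Eif4a2, an initiation factor helicase gene, had 0.73 (adjusted p = 0.0625) and Snora28 in Eif5 had 0.05 (adjusted p = 0.933). Of these 3, 2 had an unadjusted p under 0.05. DESeq2 called 1 of them and limma-voom 0.

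Of the 4 entries with no host to compare, 2 rose. Snora57 measured 3.17, 2.63 and 3.86 CPM in caMNK, against 1.06 and 1.12 CPM in pBABE (log2 fold change 1.56, SE 0.233, edgeR adjusted p = 0.0094), with no overlap between the groups. It lies within Lbhd1 on the opposite strand, which stood at 106 to 128 CPM and had a log2 fold change of 0.02. The counts carry no strand information between overlapping genes, so reads of Lbhd1 RNA there cannot be told apart from those of Snora57. The Snora26 row, which holds the counts of Dancr, measured 4.98, 3.56 and 4.81 CPM in caMNK, against 1.92 and 1.58 CPM in pBABE (log2 fold change 1.33, SE 0.216, adjusted p = 0.0117). Without that row the count of rises was 9 of 30. Snora43 and Snora17 stand close together on chromosome 2 and did not pass. Snora43 gave 1.18 on the log2 scale (adjusted p = 0.0999), and the Snhg7 row, listed with 139 bases where a second annotated Snora43 has 139, held nearly its counts. Snora17 had 0.906, 0.494 and 0.676 CPM in caMNK, against 0.432 and 0.868 CPM in pBABE, which overlap.

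**Figure D2:**
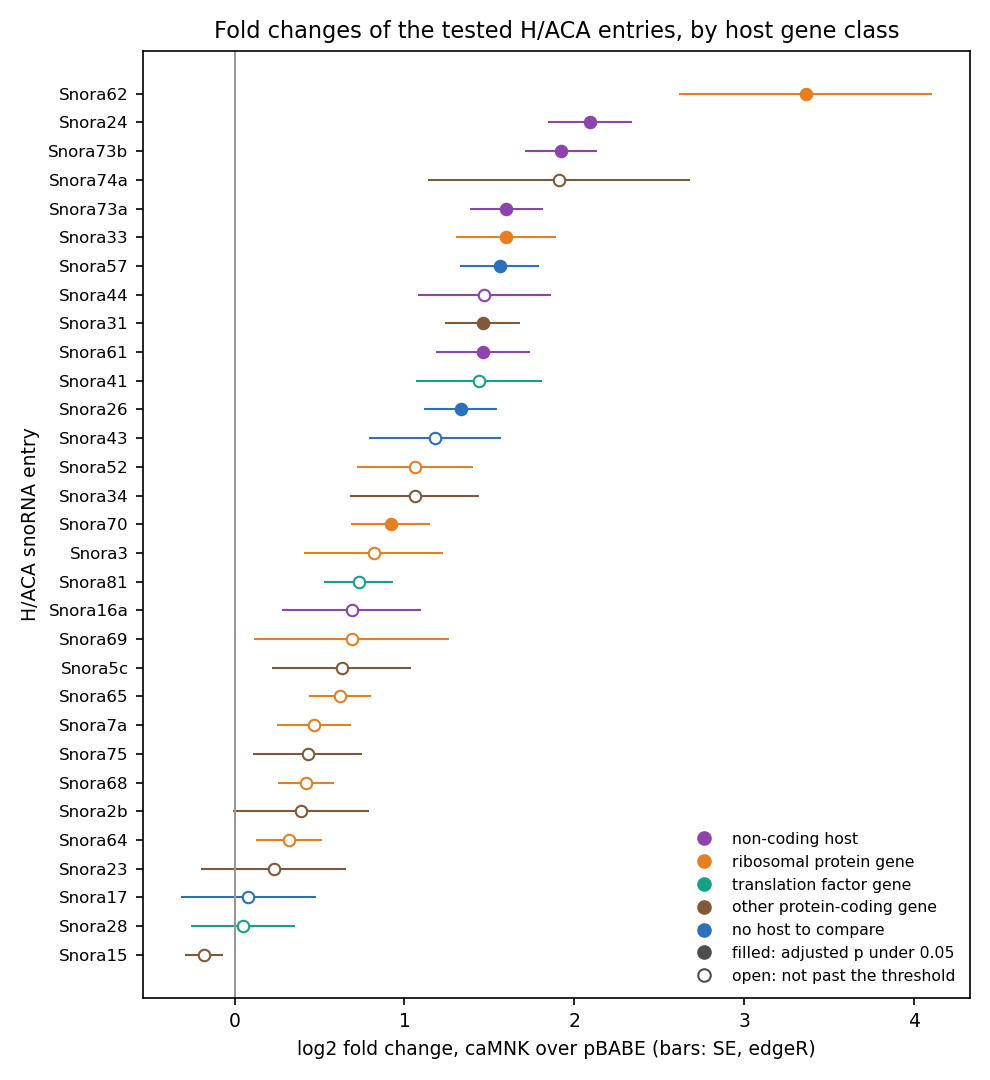
Log2 fold change of caMNK over pBABE for each of the 31 tested entries, with bars of 1 SE from the edgeR fit, coloured by the class of the host gene (blue: no host to compare). The 10 filled points, at 0.92 to 3.36, passed an adjusted p of 0.05; the 21 open points run from -0.18 for Snora15 to 1.91 for Snora74a.

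Snora15 stood apart from the rest. It lies in Cct6a, a chaperonin subunit gene, and was the most abundant entry, at 31.6, 26.4 and 33.1 CPM in caMNK and 33.6 and 35 CPM in pBABE. Every caMNK library was below both pBABE libraries, but the difference was small and did not pass (log2 fold change -0.18, SE 0.114, edgeR adjusted p = 0.371). Per length it held 244 CPM per kb, against 32.3 CPM per kb for the next entry, Snora65, and it made up 42.5% of all counts in the 39 entries. Of its 131 bases, 102 are exonic in non-coding transcripts of Cct6a. Its counts per base were 28.5 times those of the rest of the Cct6a gene body. The ratio was 1.74 when the same Cct6a counts, reads in introns included, were divided by its exonic bases alone. The other entries ran from no count (Snora35, in Htr2c) to 32.3 CPM per kb. Of the 35 entries with a host, 5 had a higher density of counts than the rest of the host gene body: Snora15, Snora61, Snora73a, Snora73b and Snora78. With all host counts divided by its exonic bases in this way, the ratio was 1.26 for Snora61 but 0.651 for Snora73a and 0.894 for Snora73b. For Snora78, with 16 counts in all, it was 4.58. At the low end of density over the gene body were Snora35, Snora62, Snora21 (in Rpl23), Snora69 (in Rpl39) and Snora19 (in Eif3a), the last at 0.021 times the density of the rest of its host.

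The summed level of the entries was higher in caMNK. All 39 together came to 89.0, 76.4 and 87.6 CPM in caMNK, against 58.4 and 63.5 CPM in pBABE. Without Snora15 and the Snora26 row, the other 37 came to 52.4, 46.4 and 49.8 CPM in caMNK, against 22.8 and 27.0 CPM in pBABE. In both sums every caMNK library was above both pBABE libraries, and caMNK replicate 2, the deepest library, was the lowest of its group.

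The entries differed widely in depth. The 10 called entries held a median of 372.5 counts over the 5 libraries (37 to 648), against 121 for the tested entries that were not called, which include the most abundant, Snora15 and Snora65. Under 100 counts in all were found for 17 of the 39. The 8 entries not tested (Snora19, Snora20, Snora21, Snora30, Snora35, Snora36b, Snora47 and Snora78) had at most 33 counts each over the 5 libraries, and a difference in them was not detectable at this depth.

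The nested position of most entries raises the question whether they changed with their host. Of the 30 tested hosts, 2 rose (Snhg3 and Snhg12), 0 fell, and the median log2 fold change was 0.00. At an unadjusted p under 0.05, 5 hosts were higher and 2 lower, DESeq2 called 3 rises and 1 fall, and limma-voom 2 rises and 0 falls. For 24 entries the counts allowed a direct test: the log2 ratio of an entry's counts to the rest of its host's counts in the same library, which needs no scaling between libraries, was compared between the groups with limma over all 293 nested small RNA entries. Of the 24, 11 rose against their host and 0 fell, against 19.8% that rose and 2.73% that fell over the 293. The median change of the ratio was 0.62 on the log2 scale, against 0.26 over the 293. For 17 of the 24, the ratio was higher in every caMNK library than in both pBABE libraries. The like count over the 293 was not made, so the 17 cannot be set against a background. With either pBABE library left out, fewer rises were called, among the Snora entries and over all nested entries. Without caMNK replicate 1, 5 Snora entries were called, with 34 rises over all nested entries, against 58 with every library. With no trend of the spread with level in the limma fit, 3 were called: Snora24, Snora31 and Snora33. Rises over all nested entries then numbered 27.

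**Figure D3:**
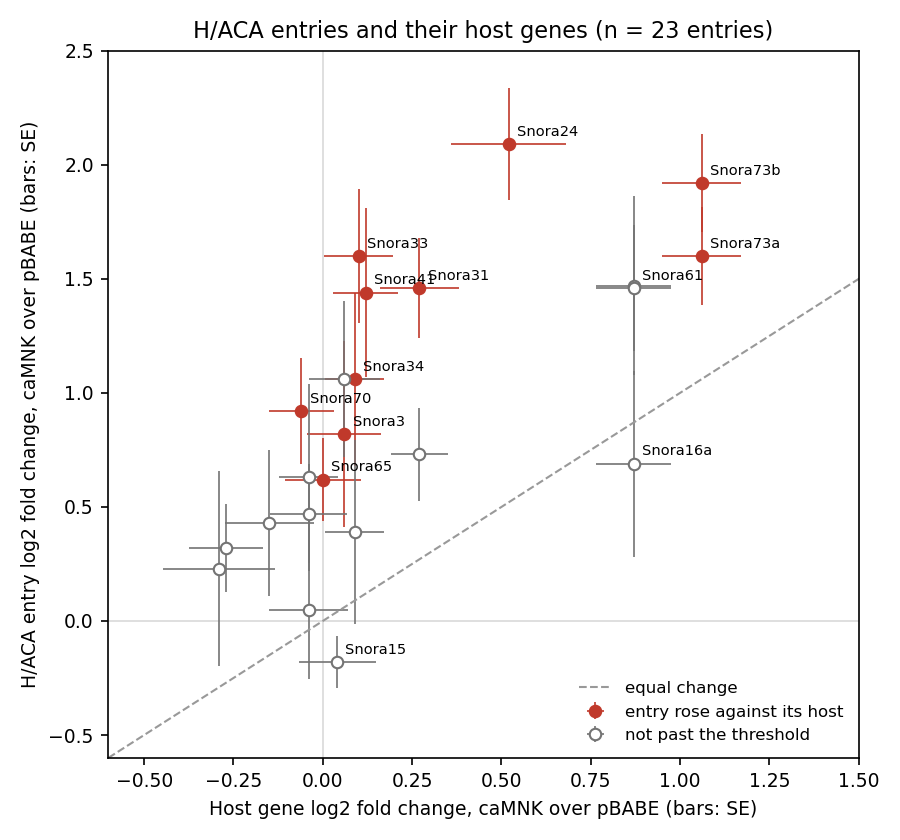
Log2 fold change of each entry against that of its host gene for 23 of the 24 entries tested against a host, with bars of 1 SE. Filled points, 10 of the 11 entries that rose against their host, lie above the dashed line of equal change; the hosts lie between -0.29 (Ipo7, host of Snora23) and 0.27 except Snhg8, Snhg12 and Snhg3.

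Snora31 had the lowest p in this test. It had 1.82, 1.32 and 1.49 counts per 1000 counts of the rest of Tpt1 in caMNK, against 0.663 and 0.67 in pBABE (log2 change of the ratio 1.19, SE 0.216, limma adjusted p = 7.41e-06). Snora24 followed, with 47.4, 54.6 and 35.9 per 1000 counts of Snhg8 in caMNK, against 15.0 and 13.9 in pBABE (1.62, SE 0.313, adjusted p = 2.08e-05). In both, each caMNK library was above each pBABE library by a wide margin. Snora33 had 2.96, 2.95 and 2.53 per 1000 counts of Rps12 in caMNK, against 0.645 and 1.45 in pBABE (1.51, SE 0.311, adjusted p = 5.29e-05), and Rps12 itself had a log2 fold change of 0.10. Snora70 had 3.40, 3.71 and 3.72 per 1000 counts of Rpl10 in caMNK, against 1.51 and 2.24 in pBABE (0.96, SE 0.274, adjusted p = 0.00438). Rps12 and Rpl10, genes of abundant ribosomal proteins with log2 fold changes of 0.10 and -0.06, thus differed far less than Snora33 and Snora70.

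Within Snhg3, which rose itself, both snoRNAs rose further than the rest of the gene. Snora73b had 183, 198 and 259 per 1000 counts of the rest of Snhg3 in caMNK, against 105 and 108 in pBABE (log2 change of the ratio 0.97, SE 0.213, limma adjusted p = 0.00011). Snora73a had 148, 146 and 150 in caMNK, against 116 and 75.8 in pBABE (0.65, SE 0.228, adjusted p = 0.0262), and its call was lost with the host counts as deposited, among other settings. The Snhg12 entries did not pass against their host. Snora61 had 91.1, 66.7 and 73.4 per 1000 counts of Snhg12 in caMNK, against 49.0 and 49.0 in pBABE (0.62, SE 0.324, adjusted p = 0.156), and Snora44 and Snora16a overlapped between the groups (0.61 and -0.15).

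Among the 5 entries that rose against their host without passing the comparison of levels were Snora41 (1.33, limma adjusted p = 0.000733), Snora65 (0.63, adjusted p = 0.00965), Snora3 in Rpl27a (0.87, adjusted p = 0.0182) and Snora34 in Kansl2 (1.02, adjusted p = 0.0394). For Snora3 the groups overlapped, with 7.39, 4.44 and 4.38 counts per 1000 counts of Rpl27a in caMNK and 1.61 and 5 in pBABE. For the other 3 named here each caMNK library was above both pBABE libraries. Snora15 went the other way by a small amount, with 67.4, 45.6 and 72.1 per 1000 counts of Cct6a in caMNK and 70.2 and 71.8 in pBABE, which overlap (-0.23, adjusted p = 0.259). Over both tests, 6 entries rose in both (Snora24, Snora31, Snora33, Snora73a, Snora73b and, narrowly in level, Snora70). A further 3 rose in level and could not be tested against a host (Snora26, Snora57 and Snora62), and Snora61 rose in level only.

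**Figure D4:**
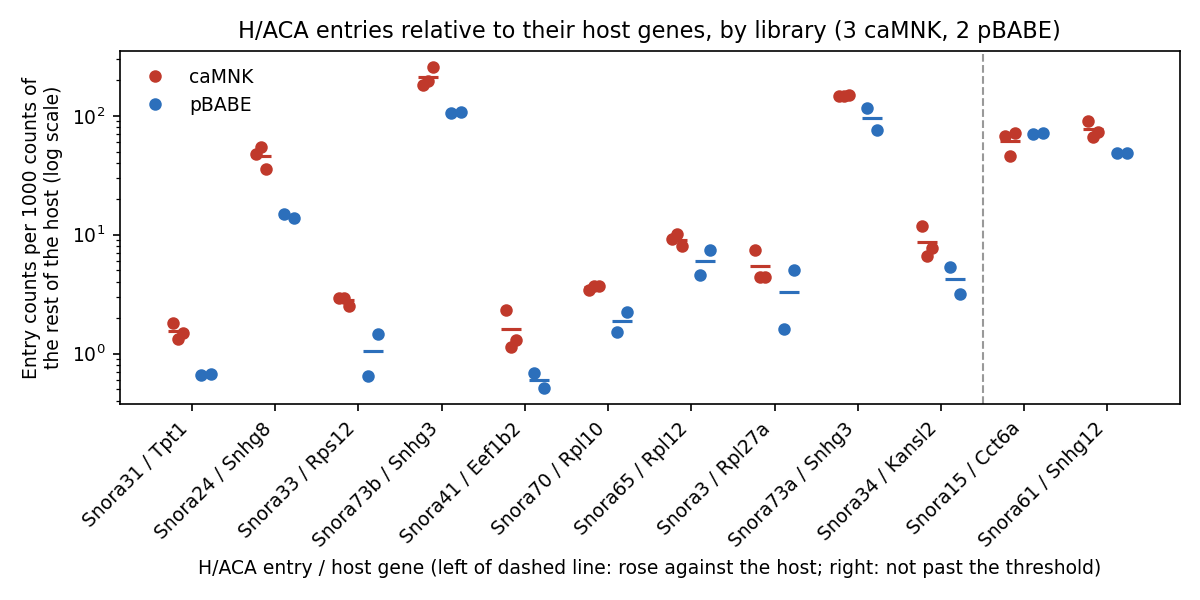
Counts of each entry per 1000 counts of the rest of its host gene on a log axis, 1 point per library and a bar at each group mean. The entries left of the dashed line, 10 of the 11 called, rose against their host, with overlapping points for Snora3; Snora15 and Snora61, right of the line, did not pass.

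The other short RNA classes were read the same way. Of 82 box C/D (Snord) entries, which guide ribose methylation, 50 were tested, 13 rose and 0 fell (31 higher and 0 lower at an unadjusted p under 0.05, 12 rises by DESeq2 and 11 by limma-voom), with a median log2 fold change of 0.97. Against their hosts, 18 of 43 Snord entries rose and 0 fell, with a median of 0.74. The Snord counts were thus near those of the Snora entries, and the difference between the classes was not tested. Of 152 tested Mir entries, precursors of microRNAs that also lie in introns in many cases, 9 rose and 6 fell (median 0.01), and against their hosts 10 of 146 rose and 7 fell (median -0.06). None of 9 small Cajal body RNA entries had enough counts to test, and of 17 Rnu entries 2 were tested and did not pass, both with an unadjusted p under 0.05. Among 4 tested RNA polymerase III or vault RNAs and like short RNAs, Rpph1, the RNA of ribonuclease P, fell, with 0.627, 0.555 and 0.595 CPM in caMNK against 1.68 and 1.18 CPM in pBABE (log2 fold change -1.29, SE 0.261, edgeR adjusted p = 0.0236). Rn7sk did not pass (log2 fold change 3.43, edgeR adjusted p = 0.127). It varied widely within caMNK, at 0.0349, 2.90 and 1.19 CPM, against 0.216 and 0.031 CPM in pBABE. Rn7s1 (0.63) and Rn7s2 (1.35) did not pass either, and the groups overlapped for each of these 3.

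Genes for the proteins that bind, assemble and trim H/ACA RNAs did not pass the test. The core proteins were Dkc1, at 136, 162 and 143 CPM in caMNK and 161 and 170 CPM in pBABE (log2 fold change -0.17, edgeR adjusted p = 0.308), Gar1 (0.08), Nhp2 (0.14) and Nop10 (0.09). None of the 4 had an unadjusted p under 0.05, and DESeq2 and limma-voom called none. Of 8 assembly factors 0 were called (median -0.13), with 1 lower at an unadjusted p under 0.05. Naf1, which brings dyskerin to nascent snoRNAs, had -0.11 and Shq1, the dyskerin chaperone, -0.08. Of 8 trimming and tailing genes 0 were called (median -0.05), with 1 higher and 1 lower at an unadjusted p under 0.05. DESeq2 and limma-voom called none of either list, nor any of the 4 box C/D core proteins or the 12 stand-alone pseudouridine synthases (median -0.02), which act without a guide RNA and of which none had an unadjusted p under 0.05. Terc, the telomerase RNA, which ends in an H/ACA domain, had 2 counts in all 5 libraries, so telomerase RNA was not detectable at this depth.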

How the data were processed

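The authors deposited raw read counts per gene, 1 table per library with gene symbol and length, per the file headers. The submitters' processing notes list featureCounts 1.5.3, STAR 2.5.3, Trimmomatic 0.32, SAMtools 0.1.19, FastQC 0.11.2 and DESeq2, and the build mm10. Which annotation release was counted, and with what options, is not given in the sources used here. The deposited length equals the annotated span for 38 of the 39 entries and, introns included, for hosts such as Tpt1 (3433 bases), though not for every row, and reads in a nested entry also appear in the counts of its host, whichever its strand.

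Groups and replicate numbers come from the titles. The counts of all 5 libraries were fitted with edgeR 4.0.16 in R 4.3.3 (filterByExpr, TMM, robust quasi-likelihood test, group only), with Benjamini-Hochberg adjustment over all entries tested and a threshold of 0.05. SE is the absolute log2 fold change over √F. CPM values use TMM-scaled totals. Ratios to hosts, log2((entry + 0.5) / (host without entry + 0.5)), were compared with limma 3.58.1 (trend, robust) for entries and hosts with a mean count of 10 or more. DESeq2 1.42.0, limma-voom, other scalings and filters, a replicate block and leaving out each library were alternatives. Both tests were checked on simulated data.

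The members, lists and tests were chosen with earlier results of these data known. Genes named are the called entries, the 10 of lowest p and the 10 of highest CPM. Entries of highest or lowest density over the host, entries called against the host, their hosts, core and assembly proteins, Terc and Mknk1 are named too. Entries nearest the threshold, overlapping genes, Rpph1, Rn7sk, Rn7s1, Rn7s2, Cd68, Cdh5, Pecam1, Pdgfra and Dcn were named after their values were seen. No library pair was alike within sampling noise: the lowest chi-square per degree of freedom was 6.35, for the pBABE pair. Some items are not reported here.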

Additional observations from a re-analysis of the deposited data

How the results depend on the processing

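The count of 10 called Snora entries was 18 with no filter on low counts and 16 with the replicate number as a block (replicate block), where rises over all entries numbered 1591 and 1477 against 753, and ran from 0 to 16 when 1 library was left out. RLE scaling, total-count scaling, the stricter filter, DESeq2 and limma-voom gave 9 to 12. The median log2 fold change of the tested entries was 1.14 under the stricter filter and 0.74 to 1.18 when 1 library was left out. The count of 11 entries that rose against their host was 3 in limma without trend, 11 with the block, and 2 to 12 when 1 library was left out. Of up to 52 genes named and retested, 13 lost their call without either pBABE library in turn, 6 without caMNK replicate 1, 1 in DESeq2 and 1 in limma-voom, while 9 gained one with no filter and 8 with the block. Values near 0 that did not pass changed sign: Rpl32 to 0.01 and Tbrg4 to 0.02 with total-count scaling. When 1 library was left out, Cct6a ran from -0.06 to 0.10, Rpl27a from -0.02 to 0.12, Rpl32 from -0.16 to 0.07, Rps12 from -0.02 to 0.22 and Naf1 from -0.34 to 0.01. No called value changed sign. DESeq2 gave no adjusted p for Snora62. Whether the replicate numbers pair the libraries could not be decided. The deviations of same-numbered libraries from their group means correlated at -0.0549 and -0.0252 over entries. With 2 pBABE libraries these deviations mirror each other by construction, and caMNK replicate 3 has no partner. With 1 pBABE library left, the lone library is assumed to vary like caMNK. Results without the Snora26 row, and with every nested entry taken off the host counts, were added after seeing the data; the second also gave 11 entries.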

Other observations

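A further 4 entries carry the symbol in capitals and fall outside the rule: SNORA17, SNORA50, SNORA76 and SNORA43. They held 15, 22, 1 and 0 counts over the 5 libraries, and none was tested. Annotated microRNAs overlap Snora entries: Mir664 in Snora36b, Mir1291 in Snora34 and mmu-mir-3084-1 in Snora19. The tables also hold nested snoRNA entries with other symbols, of which 19 of 77 rose and 1 fell against their host (median log2 change of the ratio 0.50). Among markers of other cell types, Ptprc, the pan-leukocyte gene, had 14 counts in all. Of 3 leukocyte markers 1 was tested, Cd68, at 3.10, 2.43 and 4.30 CPM in caMNK against 1.87 and 2.20 CPM in pBABE. Every caMNK library was above both pBABE libraries, but Cd68 did not pass (log2 fold change 0.68, edgeR adjusted p = 0.144). Neither epithelial marker was tested. Both fibroblast markers were tested and did not pass: Pdgfra lay between 38.1 and 54.5 CPM and Dcn between 1.66 and 2.26 CPM. Cdh5, an endothelial cadherin, fell, with 2.27, 2.47 and 2.81 CPM in caMNK against 4.89 and 8.80 CPM in pBABE (log2 fold change -1.43, edgeR adjusted p = 0.0141). Pecam1, the other endothelial marker, went the other way with overlapping groups and did not pass (log2 fold change 1.07, edgeR adjusted p = 0.264).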
